A study of Mus musculus with 32 samples.

Results

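Müller glia are the radial support cells of the retina, and 10 genes through which they keep it in balance were followed here in the retinas of mice that had been in space: Glul, Rlbp1, Slc1a3, Aqp4, Kcnj10, Dkk3, Apoe, Clu, Vim and Car2. They were taken by gene symbol from an expression table of 26629 genes, in which each of the 10 symbols occurs once. All 10 had at least 1 FPKM (fragments mapped to a gene, scaled to the length of its transcript and the depth of the library) in all 16 RNA libraries and are among the 12460 genes tested. The animals were female C57 BL/6J mice, 21 weeks old by their labels. The spaceflight group spent 37 days on the International Space Station, and the ground control group was kept in the same kind of habitat on the ground. Both groups ate the same food bar diet, were killed and frozen, and gave retinas that were dissected from frozen carcasses. RNA was read in 9 spaceflight and 7 ground control retinas, and DNA methylation in 8 and 8, with 1 retina per mouse.

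A Müller cell spans the whole depth of the retina and touches nearly every neuron. It takes up glutamate after synaptic release and turns it into glutamine, passes potassium and water to the vitreous and the vessels, buffers carbon dioxide and bicarbonate, carries retinoids for cone pigments, and supplies lipoproteins. When the retina is injured, Müller cells raise intermediate filament proteins and may let go of these tasks, a state called gliosis. The 10 genes are not private to Müller glia: Rlbp1 is also made by the pigment epithelium, Apoe and Clu by many cells that secrete, Vim by mesenchymal cells and lens fibres, and Aqp4 and Kcnj10 by astrocytes.

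The label of mouse M21 is at odds with itself, since the RNA source name reads flight while the condition reads ground control. Here M21 stands with the spaceflight mice, and the other reading was an alternative. Of the ground control RNA columns, M31 could be tied to its own sample and the other 6 only to their group. For these 6 the titles and the study's table of reads disagree on which library carries which mouse number, and the titles name another mouse in place of M40. A fit without each of them was run too. The libraries also differed in genes of neighbouring tissue. The 14 lens genes, called lens crystallins below, were crystallins together with Mip, Bfsp1, Bfsp2 and Lim2. They summed to 51.4 to 37868 FPKM in spaceflight retinas and to 63.7 to 54973 FPKM in ground control retinas. In a library, 0 to 3 of them were at 0. The highest sums were those of spaceflight mouse M22 (37868 FPKM) and ground control mouse M31 (54973 FPKM), against 51.4 to 2057 FPKM in the other 14. Rpe65, the retinoid isomerase that defines the pigment epithelium, was highest in spaceflight mouse M23 (400.3 FPKM) and ground control mouse M31 (572 FPKM), against 52.4 to 236 FPKM in the rest. Rod genes summed to 16475 to 34826 FPKM across all libraries. The members, their ratios and their methylation were therefore also compared without M22, M23 and M31, and the gene lists are given without them in a paragraph of their own. Other tissue lists set other mice apart that stayed in. M21 had the highest sum of corneal and conjunctival genes (2115 FPKM), and M32 the second highest of melanocyte genes (724 FPKM), after M31.

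None of the 10 genes passed the test between spaceflight and ground control retinas. The test was limma on log2(FPKM + 0.1), and genes were called at 1.2-fold or more in either direction with p no higher than 0.05 and, after Benjamini-Hochberg adjustment, no higher than 0.3. By it 0 of 10 members were called, while 24 of the 12460 genes tested were (0.193%). Without the adjusted p, 1 of 10 (Glul) was lower in spaceflight retinas and 0 of 10 higher. Over all 12460 genes, 400 (3.21%) were lower and 536 higher. The spaceflight and ground control values overlapped for every member. The log2 differences ran between −0.48 (Apoe) and 0.28 (Aqp4), with a median of −0.19 over the members and −0.0072 over all genes tested. Of the members 2 of 10 were positive, and of all genes 6020 of 12460. The member median depended on the fit: over 27 alternatives it lay between −0.26 (without M22) and −0.035 (after quantile normalization).

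**Figure D1:**
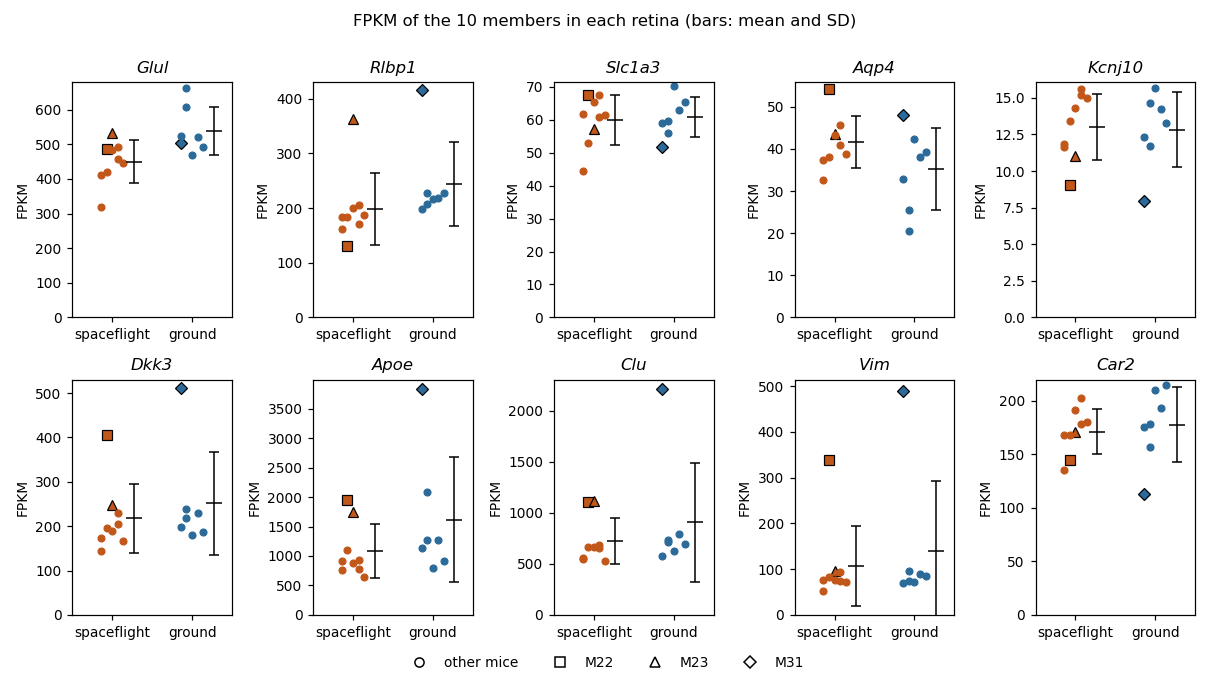
FPKM (vertical axes, linear, starting at 0) of the 10 members in each retina, for 9 spaceflight retinas (left in each panel) and 7 ground control retinas (right). Points are mice, with a square for M22, a triangle for M23 and a diamond for M31, and bars are mean and SD; for Vim in ground control retinas the lower end of the bar lies below 0 and is not drawn. The groups overlap in every panel, and M31 is the highest mouse for Rlbp1, Dkk3, Apoe, Clu and Vim.

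With all mice, mean levels per length had the same order in both groups: Apoe, Clu, Glul, Dkk3, Rlbp1, Car2, Vim, Slc1a3, Aqp4 and Kcnj10. Apoe averaged 1080 FPKM in spaceflight and 1616 FPKM in ground control retinas, which is above 99.7% of tested genes in both groups. At the other end stood Kcnj10, at 13.0 FPKM in spaceflight and 12.8 FPKM in ground control retinas, near the middle of all tested genes (55.4% and 54.6% of genes lower). Within single retinas, Apoe exceeded Clu in all 9 spaceflight and all 7 ground control mice, and so did Clu over Glul, Vim over Slc1a3, Slc1a3 over Aqp4 and Aqp4 over Kcnj10. Neighbours in the middle of the order changed places between mice. Dkk3 exceeded Rlbp1 in 3 of 9 spaceflight and 3 of 7 ground control mice, and Rlbp1 exceeded Car2 in 6 of 9 and 7 of 7. Without M22, M23 and M31, Rlbp1 averaged above Dkk3 in ground control retinas (216 and 208 FPKM). In spaceflight retinas it stayed just below Dkk3 (185 and 186 FPKM).

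Of the 10 members, Glul had the lowest p. It encodes glutamine synthetase, which joins ammonia to glutamate and is found almost only in Müller cells within the retina. It had 319 FPKM at the lowest, 459 at the median and 531 at the highest in spaceflight retinas, against 469, 520 and 662 FPKM in ground control retinas. In 8 of 9 spaceflight mice it lay below the ground control median, and in 5 below the lowest ground control mouse, yet the groups overlapped. The highest ground control values, 662 and 607 FPKM, were those of the columns M40 and M32. Spaceflight retinas averaged 450.0 ± 61.5 FPKM (SD, n = 9), against 540 ± 69.1 FPKM (SD, n = 7) for ground control retinas. The log2 difference was −0.27 (95% confidence interval −0.49 to −0.04), with a limma p of 0.024 and an adjusted p of 0.388, and Glul ranked 772nd of all genes by p. Permuting the group labels exactly gave p = 0.0112 for Glul alone, unadjusted and two-sided. In whole-retina RNA, fewer Müller cells and less transcript per cell cannot be told apart.

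The Glul difference passed the call in some fits and was not called in the other 22 of 27 alternatives. It did so without M31, without M33 or without M35 (log2 −0.28, −0.30 and −0.29, limma adjusted p = 0.254, 0.291 and 0.299), where 11.1%, 6.04% and 7.09% of all genes were called. It also did without M22 and M31 together (−0.30, adjusted p = 0.260) and without M22, M23 and M31 (−0.33, adjusted p = 0.251), fits in which 11.3% and 11.5% of genes were called. With M21 read as ground control it was −0.21 (limma adjusted p = 0.633), and after quantile normalization −0.09 (adjusted p = 0.765). Before adjustment the limma p of Glul was 0.0240 with all mice, 0.0240 without M31, 0.0178 without M33 and 0.0238 without M35. By p it ranked 772nd with all mice and 1187th, 758th and 992nd in those fits. Without M22 and M31 the limma p was 0.0215 (1040th), and without M22, M23 and M31 0.0112 (560th). The highest limma p with 1 mouse left out was 0.0564.

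Slc1a3, the glutamate transporter GLAST that brings glutamate into the Müller cell, differed little between the groups. It had 44.4, 61.6 and 67.7 FPKM (lowest, median, highest) in spaceflight retinas and 51.8, 59.6 and 70.1 FPKM in ground control retinas. The ranges nearly coincided, and 3 of 9 spaceflight mice lay below the ground control median. Its log2 difference was −0.02 (interval −0.21 to 0.17, adjusted p = 0.927). The ratio of the enzyme to the transporter within a retina, which hardly depends on the scale of a library, averaged 2.90 ± 0.133 on the log2 scale in spaceflight and 3.15 ± 0.277 in ground control retinas (difference −0.24, exact permutation p = 0.0354, adjusted over 5 ratios p = 0.177). Its p was 0.05 or under in 8 of 20 alternatives, 6 of them among the 16 that left out 1 mouse, and the highest exact permutation p was 0.155. The columns M40 (3.56) and M32 (3.35) had the highest log2 ratios, and they also had the highest Glul and the lowest Aqp4. Of 15 other genes of glutamate uptake and the glutamine cycle, 13 were tested and 0 were called in either direction. Their median log2 difference was 0.01, and they ran between −0.22 for the neuronal transporter Slc1a1 and 0.32 for Slc38a6, an amino acid transporter (5.14 ± 0.991 FPKM in spaceflight and 4.15 ± 0.964 FPKM in ground control retinas, adjusted p = 0.459).

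Rlbp1 encodes CRALBP, the carrier of 11-cis retinoids in Müller cells and pigment epithelium. It had 131, 184 and 363 FPKM (lowest, median, highest) in spaceflight retinas and 198, 218 and 416 FPKM in ground control retinas. Of 9 spaceflight mice 8 lay below the ground control median and 6 below the lowest ground control mouse. The mice that stood out upward, M23 in flight and M31 on the ground, were those with the most Rpe65. Between the groups it differed by −0.31 on the log2 scale (interval −0.69 to 0.07, adjusted p = 0.506). Without M22, M23 and M31, the other spaceflight retinas averaged 185 ± 15.7 FPKM (SD, n = 7), against 216 ± 11.3 FPKM (SD, n = 6) for the other ground control retinas. Rlbp1 then differed by −0.23 (limma adjusted p = 0.243), short of the fold change of 1.2. With lens crystallins and Rpe65 as terms in the fit it was −0.07 (adjusted p = 0.669). The part of pigment epithelium in the difference was not tested.

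With all mice, the other genes of retinoid handling were not called either. Of 12 listed, 11 were tested and 0 were called, and 0 of 11 had a positive log2 difference (median −0.37). The extremes were Rgr, an opsin of pigment epithelium and Müller cells, at −0.57 (609 ± 354 FPKM in spaceflight and 868 ± 461 FPKM in ground control retinas, adjusted p = 0.492), and the retinol dehydrogenase Rdh11 at −0.07. Of the listed genes 5 also belong to the marker list of the pigment epithelium. That list, which includes Rlbp1, summed to 1144 to 6180 FPKM in spaceflight and 1922 to 9006 FPKM in ground control retinas, with a median log2 difference of −0.34 and no marker at 0 in any library.

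Water and potassium go through Aqp4 and Kcnj10, a water channel and the inward rectifier channel Kir4.1, which sit together on Müller endfeet. Aqp4 had the highest difference of the members, and was not called with all mice. It had 32.7, 40.9 and 54.1 FPKM (lowest, median, highest) in spaceflight retinas and 20.5, 38.0 and 48.1 FPKM in ground control retinas. The ground control group reached lower, with 2 of 7 mice below the lowest spaceflight mouse, those of the columns M40 (20.5 FPKM) and M32 (25.6 FPKM). On the log2 scale the difference was 0.28 (interval −0.04 to 0.60, adjusted p = 0.486). Without M40 it was 0.16 (adjusted p = 0.80). It was called in 3 other fits: without M31 (0.36, adjusted p = 0.254), without M22 and M31 (0.31, adjusted p = 0.290), and with lens crystallins and Rpe65 as terms (0.39, adjusted p = 0.212), the last in a fit that called 13.7% of genes.

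Kcnj10 had 9.02, 13.4 and 15.6 FPKM in spaceflight retinas and 7.98, 13.3 and 15.7 FPKM in ground control retinas. These ranges nearly coincided, and the lowest mouse of each group was the one with the most lens crystallins (M22 and M31). This was a log2 difference of 0.03 (interval −0.26 to 0.32, adjusted p = 0.948), and it turned negative in some fits. The log2 ratio of Aqp4 to Kcnj10 within a retina was 1.68 ± 0.382 in spaceflight and 1.43 ± 0.622 in ground control retinas (exact permutation p = 0.334). Of 14 genes of potassium handling and of the dystrophin complex, which anchors both channels at the endfoot, 11 were tested and 0 were called. Dystrophin itself, Dmd, was the furthest up, with 38.5 to 63.7 FPKM in spaceflight and 27.8 to 43.3 FPKM in ground control retinas. All 9 spaceflight mice lay above its ground control median, but the log2 difference of 0.38 had an adjusted p of 0.345.

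Car2, a cytosolic carbonic anhydrase of Müller cells and some neurons, was nearly level. It had 135, 171 and 203 FPKM (lowest, median, highest) in spaceflight retinas and 113, 179 and 215 FPKM in ground control retinas, with the lowest ground control value in M31. Spaceflight minus ground control was −0.04 on the log2 scale (interval −0.29 to 0.22, adjusted p = 0.919). The log2 ratio of Rlbp1 to Car2 was 0.17 ± 0.382 in spaceflight and 0.44 ± 0.648 in ground control retinas (exact permutation p = 0.371). Of 13 other genes of carbonic anhydrases, bicarbonate and lactate transport, 12 were tested and 0 were called. Slc4a7, a sodium bicarbonate cotransporter, stood at 0.47 (33.3 ± 4.38 FPKM in spaceflight and 25.3 ± 8.96 FPKM in ground control retinas, adjusted p = 0.384). Slc16a8, the lactate transporter of pigment epithelium, stood at −0.60 (adjusted p = 0.438).

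The secreted lipoproteins varied widely between mice. Apoe, apolipoprotein E, carries lipid between retinal cells. It had 646, 922 and 1956 FPKM (lowest, median, highest) in spaceflight retinas and 792, 1273 and 3830 FPKM in ground control retinas. M31 was far above all others on the ground, and M22 and M23 were the highest in flight. The log2 difference of −0.48 had an interval of −1.11 to 0.16 (adjusted p = 0.529). Without M22, M23 and M31 it was −0.49 and was called (adjusted p = 0.265), at 858 ± 145 FPKM (SD, n = 7) in spaceflight and 1247 ± 455 FPKM (SD, n = 6) in ground control retinas. Of the ground control mice left, M32 had the most Apoe (2088 FPKM), and M34 was next (1276 FPKM). Melanocyte marker genes summed to 724 FPKM in M32, next to M31 (1118 FPKM). A fit without M32 on top of M22, M23 and M31 was not run. With each of the 16 mice alone left out, M32 among them, the Apoe difference lay between −0.61 and −0.24 and was not called. Without M31 alone the Apoe difference was −0.24 (adjusted p = 0.630), and after quantile normalization −0.16 (adjusted p = 0.830).

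Clu, the chaperone clusterin, had 531, 667 and 1116 FPKM in spaceflight retinas and 574, 712 and 2209 FPKM in ground control retinas. Again M31 was set apart, and the other ground control mice lay at 789 FPKM or below. Its log2 difference was −0.21 (interval −0.73 to 0.31, adjusted p = 0.739), and 0.03 without M31. The log2 ratio of Apoe to Clu was 0.53 ± 0.215 in spaceflight and 0.80 ± 0.401 in ground control retinas (exact permutation p = 0.101, adjusted p = 0.253). Of 13 genes of lipoprotein secretion and uptake, 12 were tested, 0 were called and 1 had a positive difference (median −0.12). The ends were Pltp, a phospholipid transfer protein, at −0.35 and the receptor Vldlr at 0.15.

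Dkk3, a secreted relative of the Dickkopf Wnt inhibitors that is abundant in Müller cells, had 144, 197 and 406 FPKM in spaceflight retinas and 180, 218 and 511 FPKM in ground control retinas. The highest mice were M22 and M31. Its log2 difference was −0.18 (interval −0.64 to 0.28, adjusted p = 0.744), and 0.01 without M31. Of 13 other secreted Wnt modulators and Wnt targets, 9 were tested and 0 were called, between −0.65 for the secreted inhibitor Sfrp5 (adjusted p = 0.433) and 0.02 for its relative Sfrp1.

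Vim, the intermediate filament vimentin of Müller processes, was highest in the same mice. It had 52.8, 77.1 and 338 FPKM in spaceflight retinas and 69.8, 85.3 and 489 FPKM in ground control retinas. The top values were those of M22 and M31, and no other mouse exceeded 95.9 FPKM. Its log2 difference was −0.19 (interval −1.02 to 0.63, adjusted p = 0.861), and 0.18 without M31. The log2 ratio of Vim to Glul was −2.29 ± 0.678 in spaceflight and −2.37 ± 1.05 in ground control retinas (exact permutation p = 0.804). It was higher by 0.24 without M22 and M31 (exact permutation p = 0.0366, unadjusted). Of 20 alternatives, only this 1 passed the p threshold of the gene calls, so the comparison without M22, M23 and M31 did not. In the 18 alternatives not chosen after seeing the data, the lowest exact permutation p was 0.0817. Of 17 genes of reactive gliosis, 9 were tested and 0 were called, with a median log2 difference of 0.0053, between −0.42 for the endothelin receptor Ednrb and 0.15 for lipocalin 2, Lcn2. Gfap, the filament protein whose rise defines gliosis, was singled out after its values were seen. It had 1.32, 2.61 and 4.96 FPKM in spaceflight retinas and 1.87, 2.62 and 3.68 FPKM in ground control retinas (log2 difference 0.12, limma adjusted p = 0.858).

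**Figure D2:**
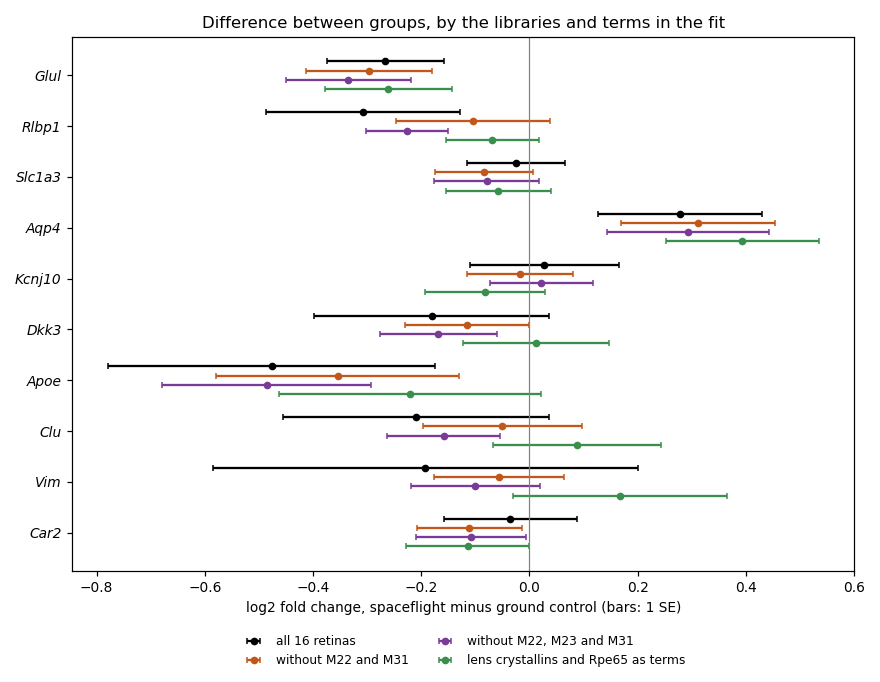
Log2 fold change of each member, spaceflight minus ground control (horizontal axis; points are limma estimates and bars 1 SE), in 4 fits that differ in the libraries or terms used. Glul stays between −0.33 and −0.26 and Aqp4 between 0.28 and 0.39 in these fits, while Dkk3, Clu and Vim lie on either side of 0.

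With all mice, other genes enriched in Müller glia were not called. Of 30 listed, all 30 were tested and 0 were called; 8 had a positive log2 difference and the median was −0.12. Ptgds, the prostaglandin D synthase, was the lowest at −0.45 (2193 ± 1254 FPKM in spaceflight and 3033 ± 1787 FPKM in ground control retinas, adjusted p = 0.529) and the lipid transporter Abca8a the highest at 0.13.

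Without M22, M23 and M31, a fit that called 11.5% of all genes, some genes of these lists were called. Of the 30 other genes enriched in Müller glia, 8 were lower in spaceflight retinas and 0 higher (median log2 difference −0.14). Ptgds was among them, at 1741 ± 211 FPKM (SD, n = 7) in spaceflight and 2374 ± 431 FPKM (SD, n = 6) in ground control retinas (log2 difference −0.44, limma adjusted p = 0.243). Of 11 genes of retinoid handling, 4 were lower, with Rgr at −0.35 (limma adjusted p = 0.257). In the list of potassium, water and the dystrophin complex, 2 of 12 were higher, and Dmd was one of them at 0.37 (limma adjusted p = 0.253). In that of carbonic anhydrases, bicarbonate and lactate transport, 1 of 12 was higher, Slc4a7 at 0.53 (limma adjusted p = 0.260), and 2 were lower, with Slc16a8 at −0.40 (limma adjusted p = 0.253). Slc38a6 was the 1 of 13 genes of glutamate handling called, and was higher (0.27, limma adjusted p = 0.284). Of the Wnt list 2 of 9 were lower, of the gliosis list 1 of 9, and of the lipoprotein list 0 of 12.

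Across mice, some members moved with the lens and pigment epithelium genes and others did not. In M31, Apoe, Clu, Dkk3, Rlbp1 and Vim were all the highest of any retina. Kcnj10 and Car2 were the lowest of any retina there. M22 was next to M31 for Dkk3 and Vim, but had the lowest Rlbp1 of all retinas (131 FPKM) and the lowest Rpe65 (52.4 FPKM). The coefficient of variation of Vim was 81.7% in spaceflight and 111% in ground control retinas with all mice, and 16.3% and 13.2% without M22, M23 and M31. For Glul it was 13.7% and 12.8% with all mice and 13.4% and 13.5% without them. How much of these levels came from tissue other than retina was not tested.

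**Figure D3:**
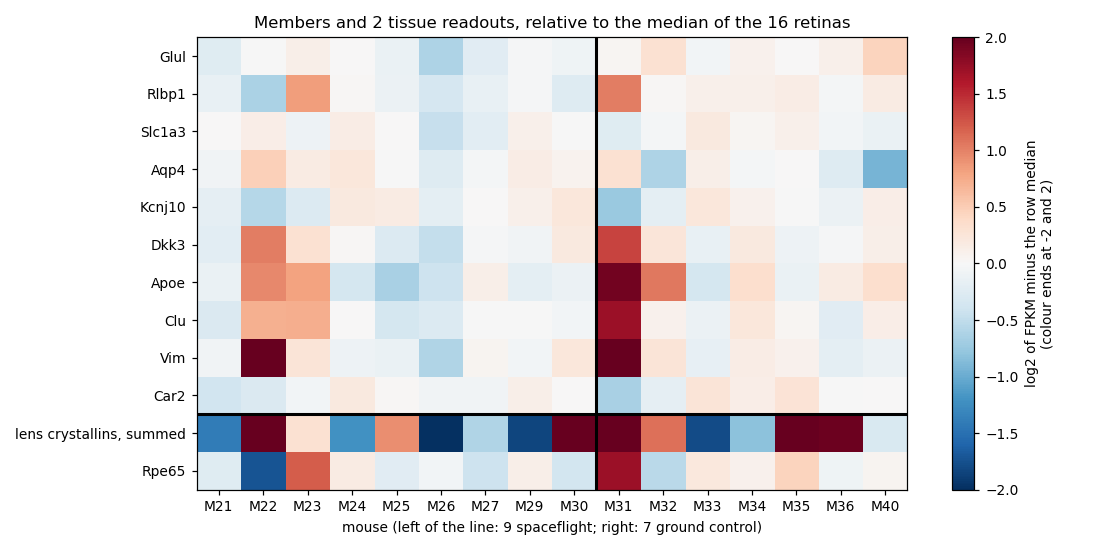
Log2 of FPKM in each retina minus the median of that row over the 16 retinas (colour), for the 10 members and for summed lens crystallins and Rpe65 (lower rows); the 9 spaceflight mice are left of the line and the 7 ground control mice right of it. M22 and M31 are dark red for Vim and lens crystallins and blue for Kcnj10, and M23 and M31 are red for Rlbp1 and Rpe65; colour ends at −2 and 2.

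The mean z-score of the members was highest in M31 (0.86) and lowest in spaceflight mouse M26 (−1.13), in which Glul, Slc1a3, Aqp4, Dkk3 and Vim were the lowest of the spaceflight group. The members did not all follow this score. Over the 16 retinas their Pearson r with it lay between −0.32 for Kcnj10 and 0.79 for Dkk3, with Car2 at −0.14. Without M22 and M31, r was 0.25 for Kcnj10 and 0.46 for Car2. The genes most like this score over the 16 retinas included Arsb, Sort1, Pygb, Hipk1, Npr2, Atp6v0a2-2, Cdh2, Tbl1x and Il6st, with Pearson r between 0.84 for Il6st and 0.90 for Arsb. Spearman rho was 0.71 for Arsb and 0.82 for Tbl1x. The 5 most opposed were 2610005L07Rik, Rnf207, Sfrs18, 3110001I22Rik and Ttc4, with r between −0.91 and −0.90. These are descriptions over libraries that share depth and tissue differences. Without M22 and M31, r was 0.81 for Arsb and 0.92 for Sort1, the sorting receptor sortilin.

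DNA methylation near the members was read by reduced representation bisulfite sequencing, which covers CpG-rich fragments. Coverage summed over CpG cytosines came to 61652709 to 80242659 in spaceflight and 59572205 to 105298542 in ground control libraries. A read that spans several CpGs is counted at each of them. With both strands added, 393 CpGs in and around the 10 genes had at least 10 reads in all 16 libraries, 246 of them within 1000 bp of a gene start (here called promoters) and 147 in the rest of the genes. In a logistic regression with overdispersion, 0 of 393 member CpGs were called at 10 percentage points and an adjusted p of 0.05 (0% of 1071432 CpGs were), and 14 of 393 (3.56%) passed the 0.05 threshold before adjustment, against 4.09% of all CpGs. Of the 10 member promoters 0 were called (0% of 19856 promoters) and 0 passed the 0.05 threshold before adjustment (5.71% of promoters). The median promoter difference over all genes was −0.0088 points.

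**Figure D4:**
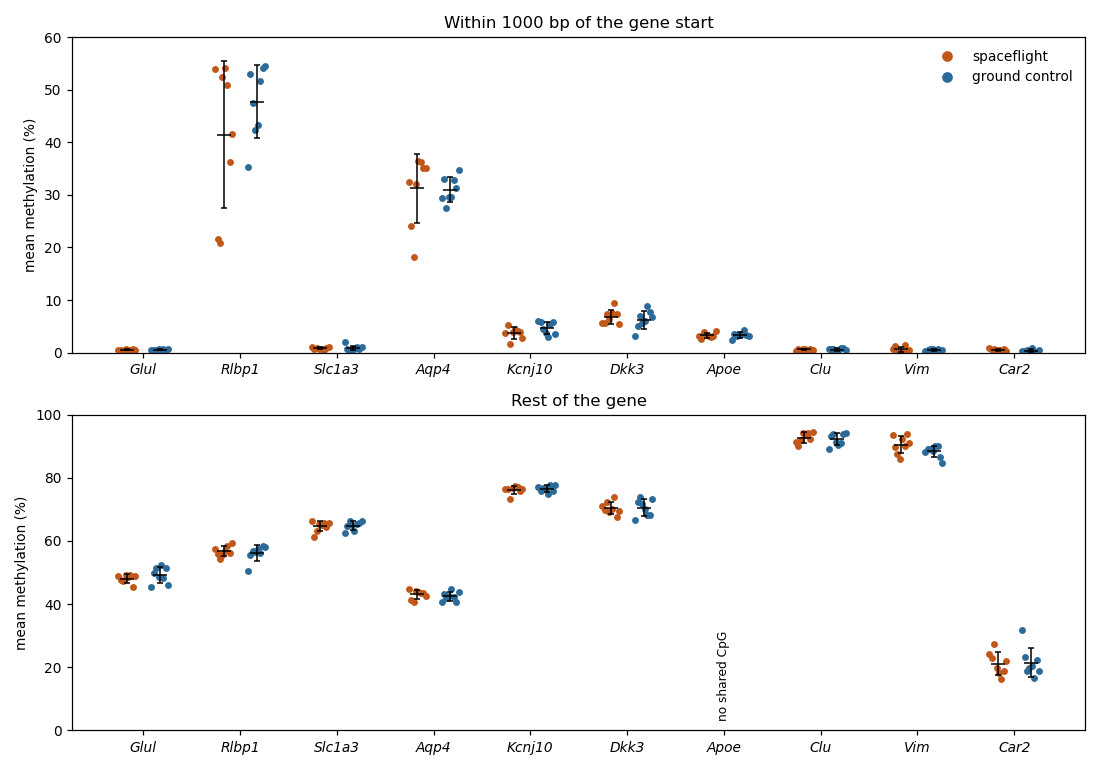
Mean methylation in percent over the shared CpGs of each member, within 1000 bp of its start (upper panel) and in the rest of the gene (lower panel). Points are mice, 8 spaceflight (left of each pair) and 8 ground control (right), and bars are mean and SD. Rlbp1 and Aqp4 are the only members with over 10% near the start, and no pair is set apart.

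The glutamate genes had little methylation at their starts and more in their bodies. At Glul (chromosome 1, 153899929 to 153909723, plus strand, GRCm38), 50 intronic CpGs within 1000 bp of the start averaged 0.513% ± 0.1004 in spaceflight and 0.526% ± 0.0716 in ground control retinas, with SD over 8 mice in each group here and in what follows (exact permutation p = 0.77). The CpGs further in the gene averaged 48.1% ± 1.33 and 49.2% ± 2.58 (exact permutation p = 0.303). There, 8 exonic CpGs were at 81.4% and 83.6% and 10 intronic ones at 21.4% and 21.7%. Slc1a3 (chromosome 15, 8634124 to 8710807, minus strand) had 24 promoter CpGs at 0.808% ± 0.199 in spaceflight and 0.897% ± 0.443 in ground control retinas, and 40 CpGs in its body at 64.7% ± 1.66 and 64.9% ± 1.35 (exact permutation p = 0.728 and 0.773).

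Promoter sequences were found in the RefSeq table (GRCm38.p6) for 6 of the 10 members, Glul, Kcnj10, Vim, Apoe, Rlbp1 and Slc1a3. Those of Glul, Kcnj10 and Vim are shown as examples: the Kcnj10 and Vim windows held CpGs that were read and little methylated, and that of Glul, the member with the lowest p in RNA, held none that was read, as did those of Rlbp1, Slc1a3 and 1 start of Apoe. Each line gives the 250 bases before the gene start on the strand of the gene. Capitals mark CpGs, read as CG on either strand, that had at least 10 reads in all 16 DNA libraries.
Glul promoter, chr1:153899679-153899928: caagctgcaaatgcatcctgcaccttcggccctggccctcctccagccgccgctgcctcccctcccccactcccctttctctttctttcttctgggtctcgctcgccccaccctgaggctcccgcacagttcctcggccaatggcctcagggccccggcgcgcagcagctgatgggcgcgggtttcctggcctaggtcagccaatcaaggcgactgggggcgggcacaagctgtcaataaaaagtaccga
Kcnj10 promoter, chr1:172340960-172341209: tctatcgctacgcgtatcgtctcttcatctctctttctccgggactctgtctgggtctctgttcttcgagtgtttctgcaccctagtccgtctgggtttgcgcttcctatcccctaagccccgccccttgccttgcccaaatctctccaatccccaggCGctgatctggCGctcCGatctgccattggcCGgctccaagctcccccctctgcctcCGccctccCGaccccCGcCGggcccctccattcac
Vim promoter, chr2:13574061-13574310: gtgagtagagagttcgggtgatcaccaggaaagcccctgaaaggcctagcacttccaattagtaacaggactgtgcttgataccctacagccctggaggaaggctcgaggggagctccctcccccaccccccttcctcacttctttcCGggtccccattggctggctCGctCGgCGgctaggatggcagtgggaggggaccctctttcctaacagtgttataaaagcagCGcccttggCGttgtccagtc
The Glul window holds 15 CpGs, of which 0 were read, and 72.7% of the 32851 promoters in the table hold fewer. Kcnj10 has 17 CpGs with 8 read (76.5% of promoters hold fewer), and Vim 8 with 6 read (57.0% hold fewer).

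The 8 CpGs read in the Kcnj10 window averaged 0.423% in spaceflight and 0.766% in ground control retinas, and the 6 of Vim 0.613% and 0.449%. Kcnj10 (chromosome 1, 172341210 to 172374085, plus strand) had 1 further CpG inside 1000 bp, in an intron 524 bp after the start, which carried 30.2% ± 9.97 in spaceflight and 36.3% ± 6.43 in ground control retinas. The 9 CpGs together gave 3.73% ± 1.08 and 4.72% ± 1.18 (exact permutation p = 0.10). The 31 CpGs of its body were at 76.2% ± 1.30 and 76.6% ± 1.01. Aqp4 had 7 CpGs near its annotated starts, all intronic. They averaged 31.2% ± 6.61 in spaceflight and 30.97% ± 2.42 in ground control retinas (exact permutation p = 0.927). Spaceflight mice M23 (18.2%) and M22 (24.1%) were the lowest of all. Without M22, M23 and M31 the averages were 34.6% ± 1.88 (n = 6) and 31.2% ± 2.51 (n = 7), a difference of 3.37 points against 0.246 with all mice. The exact permutation p of 0.0227 is not adjusted for the 19 member regions compared, and the mice left out include the lowest values of this region. The 5 CpGs in the body of Aqp4 averaged 43.0% ± 1.36 in spaceflight and 42.5% ± 1.47 in ground control retinas (exact permutation p = 0.431). With the reads of these 5 CpGs summed, the logistic regression with overdispersion gave a difference of 5.72 points that passed 0.05 before adjustment. No single CpG of the 5 differed by more than 1.44 points. The sum joins 2 exonic CpGs at 97.3% and 96.8% with 3 intronic ones at 6.87% and 6.26% and weights each by its reads. How the reads were shared among them was not tested.

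The stretch round the Kcnj10 intron CpG, and that round the Glul intron CpG described next, are shown because these single sites carry the values given, with the CpGs read in all libraries in capitals (plus strand, GRCm38.p6).
Kcnj10 intron, chr1:172341674-172341794: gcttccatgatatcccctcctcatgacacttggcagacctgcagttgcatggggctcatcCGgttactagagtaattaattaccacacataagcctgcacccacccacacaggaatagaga
Glul intron, chr1:153901375-153901495: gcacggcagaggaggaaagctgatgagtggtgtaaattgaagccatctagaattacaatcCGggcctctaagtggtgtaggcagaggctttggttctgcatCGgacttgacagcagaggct
At the first CpG of the Glul line (position 153901435, 1506 bp after the start), methylation was 7.13% ± 2.64 in spaceflight and 2.94% ± 2.71 in ground control retinas. The groups overlapped, at 3.70 to 10.9% and 0 to 6.25%, with 34 to 72 reads per library and a p of 0.0148 (logistic regression with overdispersion, adjusted p = 0.865). Among the 14 member CpGs that passed 0.05 before adjustment it had the largest difference, 4.20 points.

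Rlbp1 (chromosome 7, 79374865 to 79392250, minus strand) was the member whose start varied most between mice. Its 6 promoter CpGs lie 455 to 513 bp after the start, in an exon, and averaged 41.4% ± 14.01 in spaceflight and 47.7% ± 6.93 in ground control retinas (exact permutation p = 0.278). The spread in flight came from M23 (20.8%) and M22 (21.5%), while the other 6 spaceflight mice lay at 36.2 to 54.1%. M31 was the lowest ground control mouse at 35.2%. By their labels the DNA and RNA of these 3 mice come from the same eye. Without them the means were 48.2% ± 7.50 (n = 6) and 49.5% ± 5.15 (n = 7). All 6 CpGs had the lower mean in spaceflight retinas with every mouse included. The 5 CpGs that lie upstream of this start, at the far end of the annotated gene, were at 0.754% and 0.942%, while 7 exonic CpGs after the start were at 73.0% and 72.0% and 5 intronic ones at 90.1% and 89.2%.

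**Figure D5:**
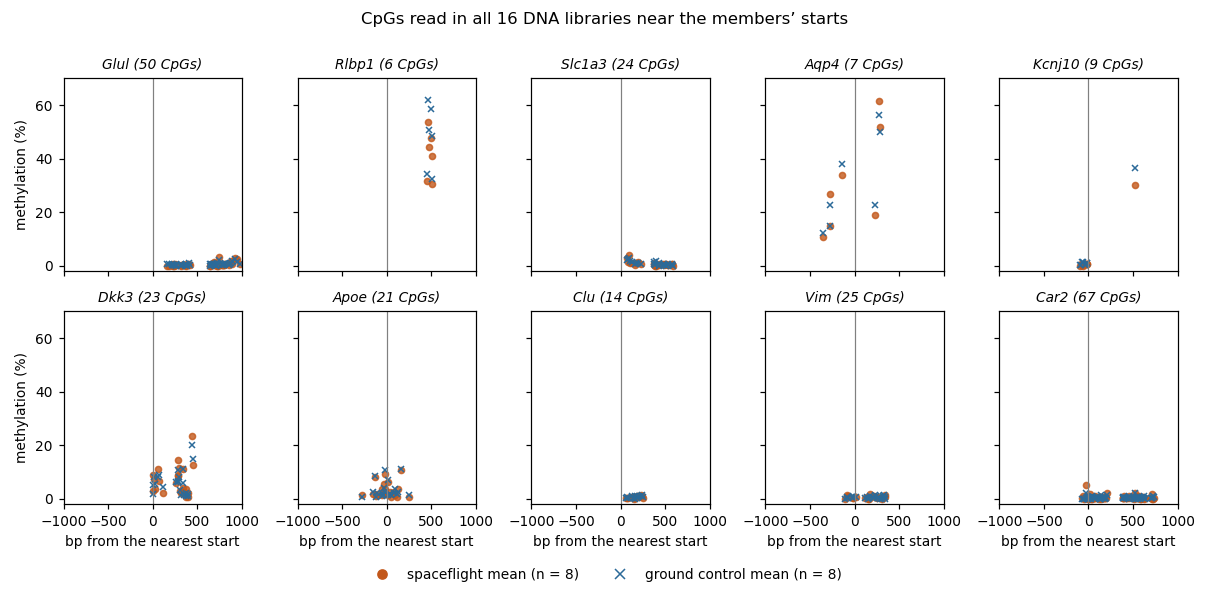
Methylation in percent (vertical axes) of each CpG within 1000 bp of a start that was read in all 16 DNA libraries, against its distance in bp from the nearest start of the gene (horizontal axes). Filled circles are means of 8 spaceflight retinas and crosses means of 8 ground control retinas. Glul, Slc1a3, Clu, Vim and Car2 lie near 0% throughout, Dkk3 and Apoe stay below 25%, and Rlbp1 and Aqp4 reach over 50%.

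The remaining members had little methylation at the start. Car2 (chromosome 3, 14886269 to 14900770, plus strand) had the most promoter CpGs, 67, at 0.517% ± 0.164 in spaceflight and 0.384% ± 0.223 in ground control retinas (exact permutation p = 0.194). Its 10 body CpGs were the least methylated of any member, at 21.1% ± 3.68 and 21.4% ± 4.67, with M31 at 31.7%. Clu (chromosome 14, 65968483 to 65981548, plus strand) had 14 promoter CpGs at 0.596% ± 0.126 and 0.574% ± 0.274 and 8 body CpGs at 92.8% ± 1.61 and 92.2% ± 1.88. Vim (chromosome 2, 13574311 to 13582826, plus strand) had 25 promoter CpGs at 0.606% ± 0.495 and 0.503% ± 0.191. Its 5 body CpGs, all exonic, were at 90.5% ± 2.76 in spaceflight and 88.4% ± 1.79 in ground control retinas (exact permutation p = 0.0855).

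Apoe (chromosome 7, 19696244 to 19701310, minus strand) has 3 annotated starts, round which 21 CpGs averaged 3.32% ± 0.491 in spaceflight and 3.33% ± 0.520 in ground control retinas (exact permutation p = 0.964). The rest of this short gene held no shared CpG. Dkk3 (chromosome 7, 112116019 to 112159482, minus strand) had 23 promoter CpGs, 22 of them exonic, at 6.83% ± 1.30 and 6.25% ± 1.74 (exact permutation p = 0.469), and 13 body CpGs at 70.4% ± 1.98 and 70.6% ± 2.66. Over the 19 member regions the exact p lay between 0.0855 and 0.964. Set among the 19856 promoters, whose median was 0.999%, those of Glul, Slc1a3, Clu, Vim and Car2 were below the median, and those of Rlbp1 (80.7% of promoters lower) and Aqp4 (77.4%) were in the upper part.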

How the data were processed

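Retinal RNA and DNA were extracted from the same samples. For RNA, the authors deposited FPKM per gene from Cufflinks, after Trimmomatic and alignment to GRCm38 by TopHat2. For DNA, reads passed Trim Galore 0.4.5 and Bismark, and the authors deposited, for each CpG cytosine, a read count (coverage) and the percent of methylated reads in methylKit's format. The expression table gives no counts, so no depth was attached to single FPKM values. The members and the gene lists were chosen with earlier results of these data known.

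Expression was tested with limma 3.58.1 (R 4.3.3, mean-variance trend) on log2(FPKM + 0.1), a scale that understates changes of low genes, where a gene reached 1 FPKM in each of the 16 libraries. Named beside the members were each pathway list's called genes and its extremes, and the 10 genes most like and 5 least like the members; some that this rule names are not reported here. An entry with no name, up to 0.388% of a library's FPKM, was dropped, and 2 columns of the table were not used. Methylated reads were rounded from coverage and percent, strands were added, and each CpG, or the summed reads within 1000 bp of RefSeq starts for genes with at least 3 CpGs, was fitted by logistic regression with overdispersion not under 1 (Python 3.11.15, numpy 2.4.6, scipy 1.17.1). Single values were compared by exact permutation, two-sided. P-values measure the spread between mice. Both tests were tested on simulated data. Alternatives were other pseudocounts, filters, scalings, read minimums and windows, M21 as ground control, and each mouse left out. Those without M22 and M31 together, without M22, M23 and M31, or with tissue terms were chosen after seeing the data.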

Additional observations from a re-analysis of the deposited data

Results flagged for a closer look

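In 17 of the 68 sets of member values searched, the highest or lowest mouse of a group stood apart from the rest by Dixon's test. Its threshold is set for about 1 in 20 sets of normally distributed values. The FPKM were searched without logs and the sets share mice and genes, so the 17 cannot be set against that rate. Spaceflight mouse M22 was set apart for Dkk3 (406 FPKM, next 248), for Vim (338 FPKM, next 95.2) and for the log2 ratios of Aqp4 to Kcnj10 (2.57, next 1.97) and of Vim to Glul (−0.53, next −2.29). Spaceflight mouse M23 was set apart for Rlbp1 (363 FPKM, next 206) and for the log2 ratio of Rlbp1 to Car2 (1.09, next 0.44). Ground control mouse M31 was set apart for Rlbp1 (416 FPKM, next 227), Dkk3 (511 FPKM, next 238), Apoe (3830 FPKM, next 2088), Clu (2209 FPKM, next 789) and Vim (489 FPKM, next 95.9). It was also apart for the log2 ratios of Vim to Glul (−0.046, next −2.53) and of Rlbp1 to Car2 (1.88, next 0.40).

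In the DNA libraries, M31 was the highest ground control mouse at the Slc1a3 promoter (1.92%, next 0.983%) and in the Car2 body (31.7%, next 23.05%), and the lowest in the Rlbp1 body (50.3%, next 55.7%). M23 was the lowest spaceflight mouse in the Kcnj10 body (73.2%, next 75.8%).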

How the results depend on the processing

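The Glul difference stayed negative and that of Aqp4 positive under every alternative run. The count of genes called, 24, was 13 with a pseudocount of 1, 11 after quantile normalization, 15 without a trend, 0 with M21 as ground control, 1427 without M22 and M31, 1456 without M22, M23 and M31, and 1701 with lens crystallins and Rpe65 as terms. The last 3 fits called 2, 2 and 1 members. Log2 differences changed sign for Slc1a3 (0.035) and Car2 (0.069) after quantile normalization, for Car2 (0.051) with M21 as ground control, for Kcnj10 (−0.018) without M22 and M31, and for Kcnj10 (−0.083), Dkk3 (0.011), Clu (0.088) and Vim (0.17) with the tissue terms. Without M22 and M31 the ratio differences were 0.33 for Aqp4 to Kcnj10, −0.21 for Glul to Slc1a3, 0.24 for Vim to Glul and 0.00667 for Rlbp1 to Car2; with M21 as ground control Glul to Slc1a3 was −0.17.

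With each mouse left out in turn, 0 to 1400 genes and 0 to 2 members were called. Among members whose sign changed, log2 differences ranged between −0.061 and 0.028 for Slc1a3, −0.081 and 0.091 for Kcnj10, −0.30 and 0.0051 for Dkk3, −0.29 and 0.032 for Clu, −0.43 and 0.18 for Vim, and −0.14 and 0.015 for Car2. The others kept their sign, between −0.30 and −0.21 for Glul, −0.42 and −0.17 for Rlbp1, −0.61 and −0.24 for Apoe, and 0.16 and 0.36 for Aqp4. Ratio differences ranged between −0.34 and −0.14 for Apoe to Clu, 0.093 and 0.44 for Aqp4 to Kcnj10, −0.31 and −0.17 for Glul to Slc1a3, −0.39 and −0.032 for Rlbp1 to Car2, and −0.15 and 0.46 for Vim to Glul. The promoter methylation differences that follow come from the summed reads of a promoter, unlike the means over CpGs given above. In points they ranged between −0.211 and 0.0473 for Apoe, −0.335 and 1.61 for Aqp4, −0.0289 and 0.0740 for Clu, −0.0325 and 0.0329 for Glul, −0.0462 and 0.0753 for Slc1a3, and −0.0441 and 0.143 for Vim. They kept their sign between −6.66 and −2.41 for Rlbp1 (−2.41 without M22, against −4.66 with all mice), −1.51 and −0.795 for Kcnj10, 0.182 and 0.776 for Dkk3, and 0.0399 and 0.125 for Car2. Of all promoters 0 to 1 were called (1 without M32).

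Without an overdispersion factor, 135 CpGs and 124 promoters were called. Promoter differences of summed reads changed sign with at least 20 reads for Glul (0.0197), Slc1a3 (0.0423) and Aqp4 (−0.144), and with at least 5 reads for Apoe (0.0327) and Clu (−0.0133). Without M22, M23 and M31, differences of means over CpGs changed sign for the promoters of Glul (0.00445), Slc1a3 (0.0553) and Vim (−0.00189) and the bodies of Slc1a3 (0.287) and Kcnj10 (0.168). Apart from the fits that leave out mice or add terms, the cause was not tested. The FPKM table holds no counts, so counting error could not be given. No paired analysis was possible because spaceflight and ground control mice carry different numbers.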
